A study of Mus musculus with 42 samples.

Results

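The T cell receptor V genes were examined in the RNA of sorted CD4+ T cells. The members were all genes of the count table whose symbol starts with Trav (alpha chain) or Trbv (beta chain), which gave 163 of 46603 genes, 128 Trav on chromosome 14 and 35 Trbv on chromosome 6. Of these, 94 (70 Trav and 24 Trbv) had 10 or more counts in 3 or more libraries and were kept. Bulk RNA-seq had been made in 42 libraries of Treg, the regulatory CD4+ T cells, and Tconv, the conventional ones, sorted by flow cytometry on a green fluorescent reporter of Foxp3, the transcription factor that defines Treg. Every mouse, controls included, carried that reporter through a cross to the DEREG line, so the reporter is shared by all groups. The mice were TNFdARE (DEREG) animals, which overproduce TNF because its mRNA lacks an AU-rich control element, and their WT DEREG littermates. Cells came from the ileum, the ankle synovium, the mesenteric node that drains the ileum, and the inguinal with popliteal nodes of the hind limb (called joint nodes here), in 3 independent experiments lettered A, B and C. The 16 groups held 3 libraries each, except the TNFdARE groups of the mesenteric node (2 Treg, 2 Tconv) and the synovium (2 TNFdARE Tconv, 1 WT Tconv, 2 WT Treg). Strain, age, sex and how many animals were pooled into a library are not given in the sources used here, so the p-values measure the spread between libraries of different experiments.

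An alpha-beta T cell makes its receptor by joining 1 Trav segment to a Traj segment and the constant gene Trac, and 1 Trbv segment to Trbd and Trbj segments and the constant gene Trbc1 or Trbc2. The V segment carries part of the surface that meets the peptide and the MHC molecule, and selection in the thymus and expansion in tissue both change how often a V segment is found. Most Treg and Tconv carry diverse receptors, while invariant NKT cells and MAIT cells use particular Trav segments. Some Trav segments, named with a dv suffix, can also be joined into delta chains. Each gene is given here as its share of all Trav or all Trbv counts of a library, a share of receptor mRNA. In bulk RNA, fewer cells that use a V gene and less receptor mRNA per cell cannot be told apart.

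Sequences of the beta genes on which the comparison of Treg with Tconv turned are shown first. Each is the last 90 bases of the spliced transcript in the GENCODE M21 annotation, up to the end of the V segment where joining takes place, and the capitals mark the codon of the cysteine that begins the antigen-binding CDR3 loop. Trbv12-1 lies at chr6:41113978-41114067, Trbv12-2 at chr6:41119275-41119364 and Trbv3 at chr6:41048739-41048828, all on the plus strand of GRCm38. Trbv31 lies at chr6:41557693-41557782 on the minus strand, beyond the constant genes. Over their last 250 bases, Trbv12-1 and Trbv12-2 were 88% identical, so the pair can be told apart by reads of 100 bases.
Trbv12-1: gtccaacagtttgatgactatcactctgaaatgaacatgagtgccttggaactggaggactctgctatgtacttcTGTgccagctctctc
Trbv12-2: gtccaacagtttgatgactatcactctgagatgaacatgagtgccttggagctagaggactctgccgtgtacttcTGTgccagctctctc
Trbv31: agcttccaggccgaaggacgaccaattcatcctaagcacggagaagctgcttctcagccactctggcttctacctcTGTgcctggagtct
Trbv3: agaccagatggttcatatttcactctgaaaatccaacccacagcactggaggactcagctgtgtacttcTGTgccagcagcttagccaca

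The alpha locus holds near-identical copies of many V genes, written without a letter, with a d and with an n. The 5 kept Trav14 genes are shown because this family moved between Treg and Tconv and because its copies differ by few bases. The lines give the last 120 bases of each transcript, all on the plus strand of GRCm38, with capitals at the 8 positions at which the copies differ. Trav14-1 lies at chr14:53554439-53554558, Trav14-2 at chr14:53641106-53641225, Trav14-3 at chr14:53763575-53763694, Trav14n-3 at chr14:53370456-53370575 and Trav14d-3-dv8 at chr14:53078926-53079045.
Trav14-1: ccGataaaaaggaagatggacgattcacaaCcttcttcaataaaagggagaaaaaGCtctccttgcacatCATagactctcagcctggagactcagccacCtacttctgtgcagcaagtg
Trav14-2: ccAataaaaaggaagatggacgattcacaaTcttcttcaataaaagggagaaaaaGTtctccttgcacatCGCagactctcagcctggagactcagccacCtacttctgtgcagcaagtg
Trav14-3: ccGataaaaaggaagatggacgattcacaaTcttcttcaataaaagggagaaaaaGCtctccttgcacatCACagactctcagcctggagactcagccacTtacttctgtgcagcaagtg
Trav14n-3: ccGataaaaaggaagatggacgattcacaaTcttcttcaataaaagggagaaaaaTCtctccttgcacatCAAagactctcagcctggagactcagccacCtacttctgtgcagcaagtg
Trav14d-3-dv8: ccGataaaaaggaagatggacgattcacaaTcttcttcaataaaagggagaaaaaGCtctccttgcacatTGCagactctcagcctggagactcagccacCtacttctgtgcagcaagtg

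Over the last 250 bases the Trav14 copies were 92.8% to 98.4% identical, and single Trav genes are therefore less certain than Trav families. A further pair is shown as an example of copies with the same letters: Trav12d-1 (chr14:52844982-52845041) and Trav12n-1 (chr14:53156029-53156088), both on the plus strand, are identical over their last 60 bases. Neither holds a stretch of 100 bases unique among V transcripts, and both had 0 counts in all 42 libraries.
Trav12d-1: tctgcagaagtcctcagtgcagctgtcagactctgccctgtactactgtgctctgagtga
Trav12n-1: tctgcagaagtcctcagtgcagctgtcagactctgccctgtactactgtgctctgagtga

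Of the 108 Trav genes annotated as functional, 65 were kept, with 5 of 20 Trav pseudogenes. All 22 functional Trbv genes were kept, with 2 of 13 Trbv pseudogenes. Of the 43 functional Trav genes that were not kept, 34 hold no stretch of 100 bases that is unique among V transcripts, the length of 1 read, and 23 had no count at all. The kept functional Trav genes had a median of 86.59% of such stretches unique, and every Trbv gene had 100%. How reads that fit several genes were counted is not given in the sources used here. The kept genes held 99.79% of all Trav counts and 99.98% of all Trbv counts. Trbv22, a pseudogene, lay at the edge with 10 or more counts in exactly 3 libraries (152 counts in all), and Trav13-3 (122 counts) and Trav15d-3 (41 counts) lay just outside it with 1 library each.

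Libraries held 18261064 to 30301202 counts, with 3199 to 8662 Trav counts and 3109 to 20416 Trbv counts. The synovial Treg libraries (3109 to 6327) and TNFdARE synovial Tconv A (5365) held the fewest Trbv counts, so their shares are the least precise. Some libraries went against their labels or held RNA of other cells. Foxp3 reached 611.5 and 595.6 CPM (counts scaled to a fixed library total) in the TNFdARE synovial Tconv libraries. It was at 108 to 182.2 CPM in the TNFdARE ileal Tconv libraries and at most 40.49 CPM in the other Tconv libraries. Among Treg libraries it was lowest in WT synovial Treg B, at 556.3 CPM, and at 1006 to 1517 CPM in all others. Cd8a, the CD8 coreceptor, was at 269.7 CPM in the 1 WT synovial Tconv library, at 22.14 CPM or less in the TNFdARE ones. Summed markers of stroma and epithelium lay at 1166 to 12820 CPM in synovial Treg and 211.8 to 1507 CPM in synovial Tconv, against at most 26.71 CPM in the nodes. In the ileum these markers lay at 33.25 to 2086 CPM in Treg (median 453.8) and 7.66 to 248.5 CPM in Tconv (median 86.92), and markers of B and plasma cells at 37.9 to 1334 and 19.63 to 50.07 CPM. Summed markers of gamma-delta T cells went the other way in the ileum, with 6.702 to 48.2 CPM in Treg and 94.76 to 261.9 CPM in Tconv. So did those of CD8 T and NK cells, with 32.91 to 57.18 and 153.2 to 236.8 CPM. Trdc, the delta constant gene, did not, with 1.761 to 7.373 CPM in ileal Treg and 2.335 to 7.262 CPM in ileal Tconv. Cd8a was at most 0.481 CPM in the ileum. Cd8b1, the other CD8 chain, was at 4.915 to 11.57 CPM in Treg and 4.94 to 8.257 CPM in Tconv. The sums alone do not show which cells were present. The part of these other cells in the V gene shares was not tested.

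Trbv3 held the largest Trbv share in 37 of 42 libraries, with a mean over libraries of 14.28%. It also ranked 1 when counts were divided by transcript length. Trbv13-2 followed with a mean of 10.24%, Trbv19 with 8.41%, Trbv16 with 7.79% and Trbv2 with 6.53%. Trbv12-2, Trbv1, Trbv31, Trbv13-3, Trbv13-1, Trbv20 and Trbv12-1 came next, from 6.51% down to 4.13%. The other 5 libraries were all synovial: Trbv16 led in 3 of them, up to 15.38% in TNFdARE Treg C, and Trbv12-1 and Trbv13-2 in 1 each. Trav shares were spread more evenly. Trav14-2 led in 21 libraries with a mean of 5.28%, and Trav14n-3 (5.13%) led in 8 and ranked 1 per transcript length. Trav4-4-dv10 led in 7 libraries (mean 4.14%), Trav14d-3-dv8 in 2, and Trav12-2, Trav13-1, Trav14-1 and Trav7-4 in 1 each. Trav5-4, Trav3-3, Trav14-3 and Trav7-5 completed the 12 most abundant, down to 2.77%. Trav genes written without a copy letter held a median of 78.14% of Trav counts per library, d copies 10.15% and n copies 11.52%.

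The evenness of use was described by the inverse Simpson index, the number of equally used genes that would give the same concentration. Its median over the 42 libraries was 35.98 genes for Trav (27.22 to 42.38) and 13.22 for Trbv (10.43 to 14.69). In joint nodes, the Trav index was 38.84 to 42.38 in Treg, above all 6 Tconv libraries at 34.65 to 37.10. In the mesenteric node it was 37.88 to 41.41 in Treg and 34.48 to 37.63 in Tconv, again without overlap. The order was not the same in the synovium, where Treg lay at 27.22 to 34.14 and Tconv at 30.94 to 35.15. For Trbv, ileal Treg reached the lowest value, 10.43, in a range of 10.43 to 13.52, against 12.22 to 13.52 in ileal Tconv. These values are a description with no test.

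**Figure D1:**
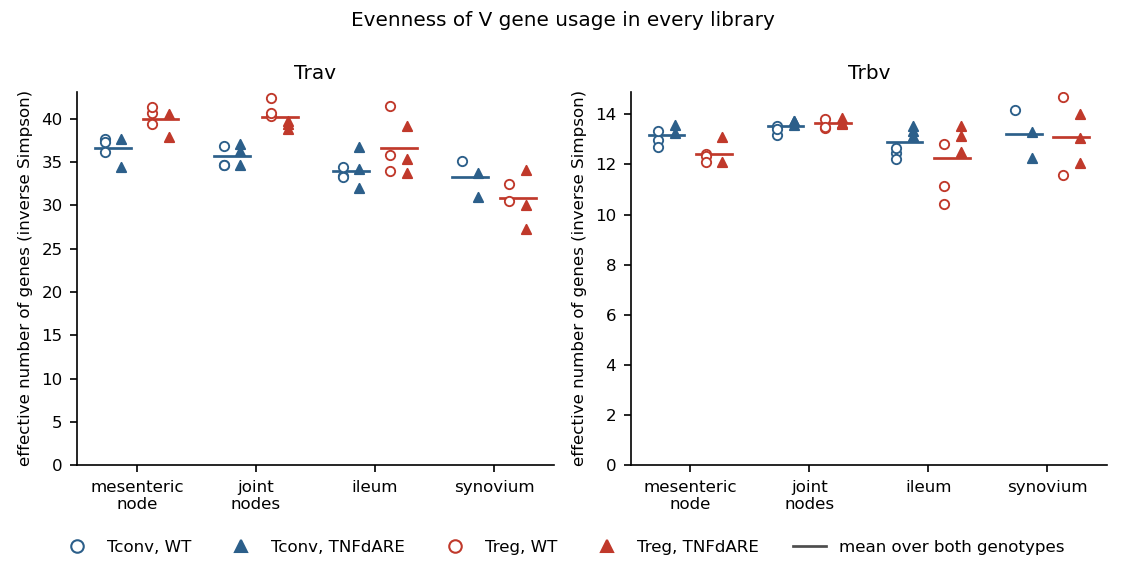
Effective number of V genes (inverse Simpson index, genes) for Trav and Trbv in each library by site, Tconv in blue and Treg in red, WT as open circles and TNFdARE as triangles; lines mark means over both genotypes. Node Treg lie above node Tconv for Trav (38.84 to 42.38 against 34.65 to 37.10 in joint nodes), and synovial Treg hold the lowest Trav values.

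Transcripts of the constant genes were measured beside the V genes. Trac, the alpha constant gene, lay at 1029 to 1178 CPM in joint node Treg and at 1671 to 1923 CPM in joint node Tconv, with no overlap (log2 fold change -0.79 ± 0.0461 SE, edgeR adjusted p = 4.317e-09). It was lower in Treg in the mesenteric node (-0.37 ± 0.0603, edgeR adjusted p = 0.0004006) and in the ileum (-0.41, edgeR adjusted p = 0.01771), where markers of other cells also differed between the sorts (medians of 453.8 against 86.92 CPM for stroma and epithelium), and not called in the synovium (-0.18, edgeR adjusted p = 0.7253). Of 27 genes of the receptor complex and its signalling, 21 were called between Treg and Tconv in joint nodes (42.9% of all genes tested were called there), 2 higher in Treg (Nr4a1, an immediate target of receptor signalling, and Cd69) and 19 lower, including the kinases Lck and Zap70. In the mesenteric node 3 were higher and 14 lower (38.4% of all genes called), in the ileum 15 were lower (14.7%), and in the synovium 1, Themis, was lower (1.1%). Themis, a T cell adaptor protein, had log2 fold changes of -1.93 in joint nodes, -1.89 in the mesenteric node, -2.84 in the ileum and -1.90 in the synovium. Among the called genes of the receptor itself, Trbc1 and Trbc2 were at -0.40 and -0.42 in joint nodes and at -0.20 and -0.26 in the mesenteric node. V genes were also fitted with each library's TMM size in place of the locus total as the offset, written below as scaled per library. The median log2 fold change of Trav genes between Treg and Tconv was 0.08 as shares and -0.76 per library in joint nodes, 0.07 and -0.38 in the mesenteric node, 0.09 and -0.39 in the ileum, and 0.14 and -0.10 in the synovium. For Trbv genes the medians were -0.12 and -0.46, -0.14 and -0.24, -0.09 and -0.51, and -0.04 and -0.74 in the same order. Changes below are changes of share within the locus.

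The beta genes Trbv12-1 and Trbv12-2 took a larger share in node Treg than in node Tconv, and Trbv31 a smaller one. Trbv12-1 was also higher and Trbv31 lower in ileal Treg. The difference in Trbv12-1 was the widest of these, from 3.06-fold in the ileum to 3.57-fold in the mesenteric node, and the ranges of both genotypes together did not overlap. All of these calls held under each alternative fitted to them and with each library left out in turn.

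Trbv12-1, known in older nomenclature as V beta 5.2, held 4.41% to 7.69% of Trbv counts in the 6 joint node Treg libraries (median 5.79%). In the 6 joint node Tconv libraries it held 1.51% to 2.30% (median 1.76%). The groups did not overlap, and the log2 fold change was 1.64 ± 0.0851 (SE, edgeR quasi-likelihood test, adjusted p = 1.168e-09). Its share in the mesenteric node was 6.24% and 6.87% in TNFdARE Treg and 7.09%, 6.67% and 6.79% in WT Treg. The Tconv libraries there held 1.64% and 2.08% (TNFdARE) and 2.20%, 1.92% and 1.56% (WT). All Treg libraries were higher than all Tconv libraries (1.84 ± 0.109, edgeR adjusted p = 1.187e-07). In the ileum, Treg held 4.71% to 8.55% (median 7.60%) and Tconv 1.99% to 2.78% (median 2.17%). These groups did not overlap either (1.62 ± 0.168, edgeR adjusted p = 8.303e-05).

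Trbv12-2 (V beta 5.1), the neighbour of Trbv12-1, differed less. It held 5.57% to 7.72% in joint node Treg (median 6.28%) and 3.96% to 5.10% in Tconv (median 4.44%). The ranges were apart, with a log2 fold change of 0.52 ± 0.0650 (edgeR adjusted p = 1.28e-05). Mesenteric Treg held 6.22%, 6.40%, 6.18%, 6.44% and 6.38%, and mesenteric Tconv 4.54%, 4.14%, 3.91%, 3.98% and 4.02%. The 5 Treg values lay within a narrow band above all Tconv values (0.61 ± 0.0678, edgeR adjusted p = 2.158e-05). In the ileum it missed the threshold (0.37, edgeR adjusted p = 0.05641), where ileal Tconv already reached 8.92%.

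Trbv31 (V beta 14) went the other way. In the ileum it held 3.29% to 4.92% in Treg (median 3.99%) and 8.09% to 10.47% in Tconv (median 8.46%). The highest Treg library lay below the lowest Tconv library (-1.11 ± 0.114, edgeR adjusted p = 7.949e-05). Mesenteric Treg held 4.38% and 5.40% (TNFdARE) and 5.60%, 5.97% and 5.42% (WT), and Tconv 7.74% and 6.97% (TNFdARE) and 7.86%, 7.82% and 7.94% (WT). Treg were lower in every library (-0.53 ± 0.0776, edgeR adjusted p = 0.0001855). In joint nodes the shares were 4.56% to 6.43% in Treg and 6.65% to 7.87% in Tconv, close but not overlapping (-0.44 ± 0.0569, edgeR adjusted p = 1.76e-05). The difference between Treg and Tconv was larger in the ileum than in the mesenteric node by 0.58 on the log2 scale, the single V gene of 92 called for this interaction (-0.58 ± 0.137, edgeR adjusted p = 0.01324), where 6.25% of all genes tested were called. The replicate block called 2 V genes for it, and it was not called with no filter, or without mesenteric TNFdARE Tconv C (edgeR adjusted p = 0.052) or mesenteric TNFdARE Treg C (edgeR adjusted p = 0.065). From here on, a bare value in brackets after a left-out library is the edgeR adjusted p without it.

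**Figure D2:**
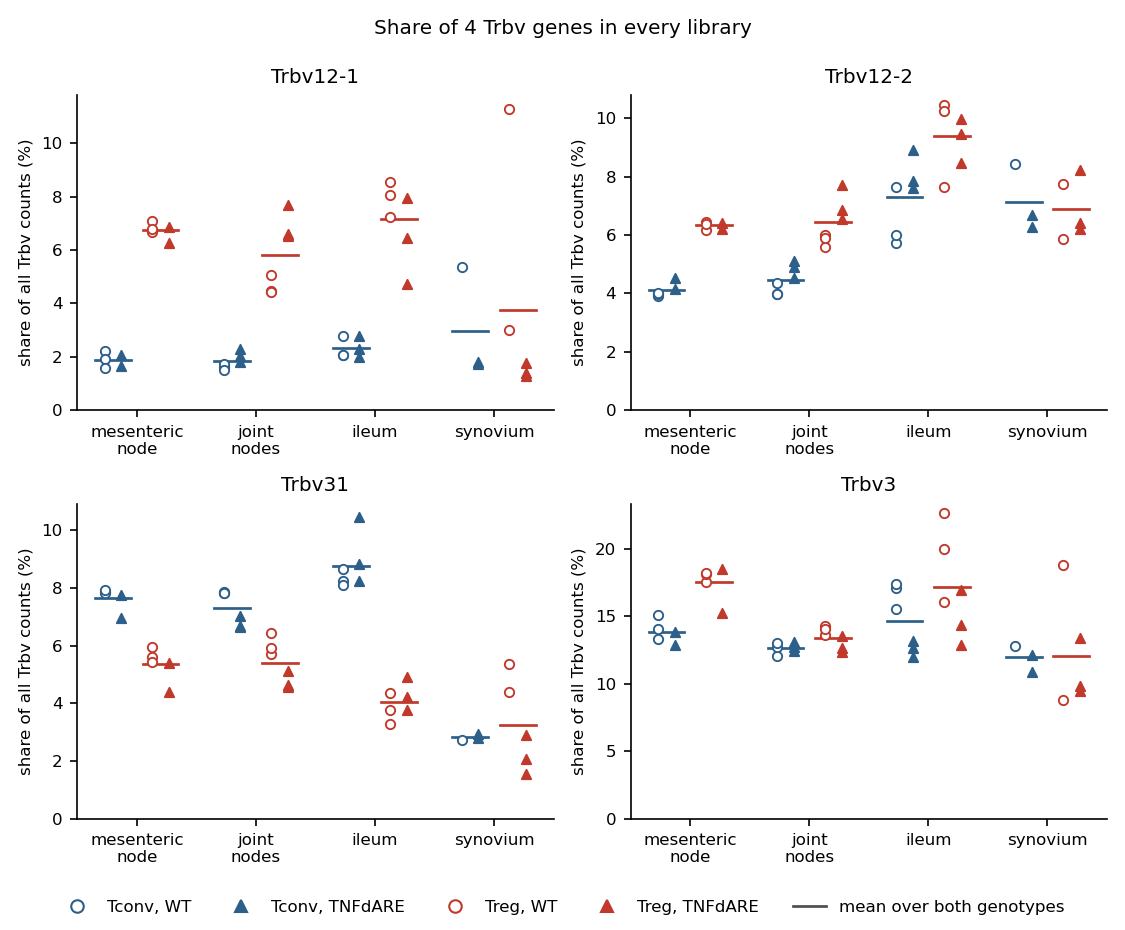
Share of Trbv counts (percent) held by Trbv12-1, Trbv12-2, Trbv31 and Trbv3 in each library, by site; Tconv in blue, Treg in red, WT as open circles, TNFdARE as triangles, lines at the means over both genotypes. Trbv12-1 in Treg lies above Tconv in ileum and nodes (4.41% to 7.69% against 1.51% to 2.30% in joint nodes) and Trbv31 below, while the synovial libraries mix.

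Across the kept genes, 19 of 88 tested were called between Treg and Tconv in joint nodes (8 higher, 11 lower), where 42.9% of all genes tested were called. In the mesenteric node 12 of 91 were called (4 higher, 8 lower), against 38.4% of all genes. In the ileum 3 of 88 were called (2 higher, 1 lower), against 14.7%, and 6 with the experiment as a replicate block. The ileal sorts also differed in summed gamma-delta T cell markers (medians of 12.24 CPM in Treg and 141.5 CPM in Tconv). The same held for summed CD8 T and NK cell markers (38.44 and 195 CPM), while Trdc, Cd8a and Cd8b1 overlapped between the ileal sorts. The part of these markers was not tested. The median absolute log2 fold change was 0.22 over the V genes and 0.30 over all genes in joint nodes, 0.22 and 0.31 in the mesenteric node, and 0.31 and 0.36 in the ileum. With V genes scaled per library in place of shares, the counts turned mostly to lower: 2 higher and 57 lower in joint nodes, 3 and 28 in the mesenteric node, and 1 and 10 in the ileum. One fit of all 42 libraries together, which shares its estimate of spread with the synovium, called 3 in joint nodes, 3 in the mesenteric node and 6 in the ileum. With no filter 10 were called in joint nodes, and DESeq2 called 10 in the ileum.

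Among the other beta genes, Trbv3 rose in mesenteric Treg (0.35 ± 0.0670, edgeR adjusted p = 0.001517), with 18.5% and 15.2% in TNFdARE and 17.6%, 18.1% and 18.2% in WT, against 12.8% to 15.1% in Tconv. The lowest Treg library, 15.2%, lay just above the highest Tconv library. Trbv1, Trbv13-1, Trbv14 and Trbv20 fell in Treg of both node sites. Their log2 fold changes were -0.33, -0.34, -0.54 and -0.32 in the mesenteric node and -0.22, -0.23, -0.25 and -0.23 in joint nodes. Shares within a locus are tied, so a rise of some genes lowers the others. The median over Trbv genes was -0.14 in the mesenteric node and -0.12 in joint nodes. Trbv1 held 5.07% to 5.86% in mesenteric Treg and 6.33% to 7.73% in Tconv. The joint node call of Trbv14 (edgeR adjusted p = 0.04649) was lost with DESeq2 and held in 3 of 12 fits that each left out 1 library (adjusted p of 0.051 to 0.11 in the others). Trbv15 (-0.20) and Trbv17 (-0.24) also fell in joint node Treg, holding in 1 and 3 of those 12 fits, and Trbv30 (0.66) rose, holding in 7 of 12 but not when scaled per library. Trbv13-3 fell in mesenteric Treg (-0.22, edgeR adjusted p = 0.03132) and held in 3 of 10.

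**Figure D3:**
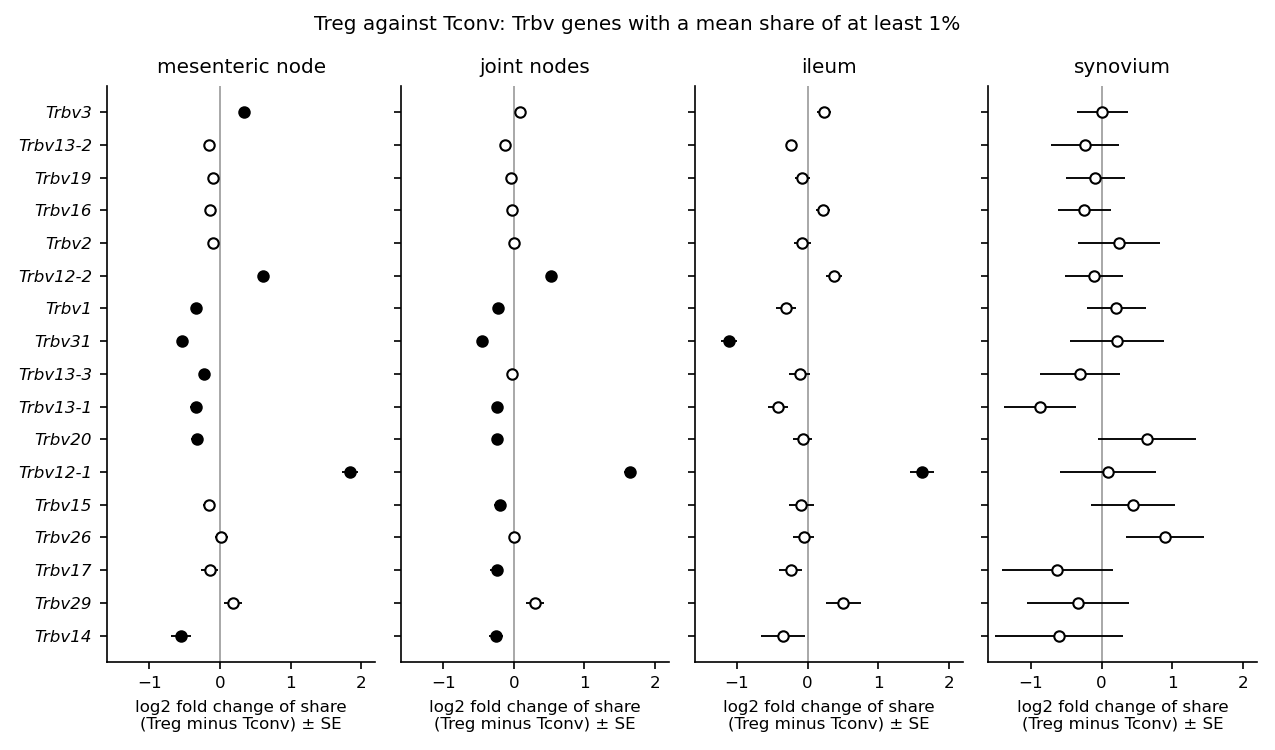
Log2 fold change of share, Treg against Tconv (± SE), for the 17 Trbv genes with a mean share of 1% or more at the 4 sites; filled points were called. Trbv12-1 stands highest at 3 sites (1.62 to 1.84), and the synovium has wide errors and no call.

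In the synovium no V gene of 91 was called between Treg and Tconv, where 1.1% of all genes were called; 1 gene had an unadjusted p below 0.05, DESeq2 called 1 and voom called 0. The Trbv12-1 share was 1.40%, 1.29% and 1.78% in TNFdARE Treg and 11.3% and 3.01% in WT Treg, against 1.79% and 1.71% in TNFdARE Tconv and 5.36% in the WT Tconv library. The WT libraries were the high ones in both cell types, and Treg and Tconv overlapped (0.09 ± 0.683, edgeR adjusted p = 0.9999). For Trbv31 the shares were 2.06%, 2.90% and 1.54% in TNFdARE Treg, 4.39% and 5.34% in WT Treg, and 2.93%, 2.80% and 2.71% in Tconv. The SE of 0.683 for Trbv12-1, against 0.0851 in joint nodes, means that a difference of the size seen in the nodes was not well resolved here. The fit of all 42 libraries called 12 genes in this comparison, and the TNFdARE libraries alone gave 0. The TNFdARE synovial Tconv libraries are those with Foxp3 at 611.5 and 595.6 CPM, below all Treg libraries except WT synovial Treg B.

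Among alpha genes the Trav14 family, summed over its copies, took a smaller share in Treg at 3 sites. It held 17.7% to 21.5% of Trav counts in joint node Treg and 23.2% to 26.9% in joint node Tconv. The ranges did not overlap (-0.34 ± 0.0598, edgeR adjusted p = 0.0002864). In the mesenteric node it held 18.9% to 19.9% in Treg and 23.4% to 25.5% in Tconv, again apart (-0.33 ± 0.0587, edgeR adjusted p = 0.0007712). In the ileum the ranges of 15.4% to 21.3% and 20.7% to 26.7% overlapped slightly (-0.42 ± 0.102, edgeR adjusted p = 0.01779). In CPM of the library the family was also lower in Treg, with medians of 38.85 against 82.1 CPM in joint nodes, 45.75 against 80.46 in the mesenteric node and 35.43 against 66 in the ileum. Scaled per library, no single Trav gene was called higher in Treg at these sites, so lower CPM alone does not set the family apart. Of its single genes, Trav14-2 fell in joint node Treg, where it held 4.22% to 5.46% against 6.00% to 7.40% in Tconv (-0.51 ± 0.0826, edgeR adjusted p = 0.0001668). Trav14-3 (-0.48) and Trav14n-3 (-0.32) fell there too, and Trav14-1 fell in the mesenteric node, 3.05% to 4.12% against 4.56% to 5.46% (-0.52 ± 0.127, edgeR adjusted p = 0.006841). Trav14-3 fell in the mesenteric node as well (-0.46, edgeR adjusted p = 0.0281), but not without TNFdARE Tconv B (0.098), WT Tconv B (0.058), TNFdARE Treg B (0.078) or TNFdARE Treg C (0.065).

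The Trav7 family took a larger share in Treg: 12.8% to 16.1% against 10.2% to 12.2% in joint nodes (0.37 ± 0.0694, edgeR adjusted p = 0.0005567), a median of 15.3% against 11.7% to 13.1% in the mesenteric node (0.28 ± 0.0743, edgeR adjusted p = 0.009457) and 13.9% to 15.7% against 10.5% to 12.1% in the ileum (0.40 ± 0.0865, edgeR adjusted p = 0.01014). None of these ranges overlapped. In CPM of the library, with no test, the Treg medians were the lower ones, at 28.07, 38.38 and 28.51 against 36.83, 41.09 and 31.03 in Tconv. The CPM ranges were apart in joint nodes and overlapped in the mesenteric node and the ileum. Among its genes, Trav7d-4 rose in the ileum (1.22 ± 0.279, edgeR adjusted p = 0.01385), 1.88% to 4.38% in Treg against 0.882% to 1.54% in Tconv, and this call was lost when scaled per library, with no filter and with the sample-sheet term. In joint nodes Trav7d-4 (0.57), Trav7-4 (0.45) and Trav7-1 (0.55) rose as shares and were negative per library (-0.26, -0.39 and -0.28), and Trav7-1 held in 7 of 12 fits with 1 library left out (0.069 to 0.097 in the others). Trav7-3 rose in the mesenteric node (0.83 ± 0.232, edgeR adjusted p = 0.01351), except without TNFdARE Tconv B or TNFdARE Treg C (0.063 each) and per library. In joint nodes Trav4-2 (0.83) and Trav4-4-dv10 (0.34) rose too and Trav5-4 (-0.44) fell. Trav4-2 was not called per library, and Trav4-4-dv10 was -0.50 there and held in 8 of 12 fits with 1 library left out (0.051 to 0.067 in the others).

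The Trbv13 family fell in Treg at the same 3 sites, by less. It was at -0.25 in the ileum (edgeR adjusted p = 0.01868), -0.21 in the mesenteric node (edgeR adjusted p = 0.006727) and -0.12 in joint nodes (edgeR adjusted p = 0.04173). The median over single Trbv genes was -0.09, -0.14 and -0.12 in the same order, so the joint node value is that of a typical Trbv gene. In CPM of the library the Trbv13 family was lower as well, with medians of 67.77 against 113.8, 131.9 against 164.4 and 127 against 164.4. Most V genes called per library were lower in Treg (57 lower and 2 higher in joint nodes), so these CPM values do not set the family apart. Of all families tested, 13 of 39 were called in joint nodes (43.1% of all features in that fit), 9 of 39 in the mesenteric node (38.6%), 5 of 38 in the ileum (14.8%) and 0 of 40 in the synovium (1.1%).

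**Figure D4:**
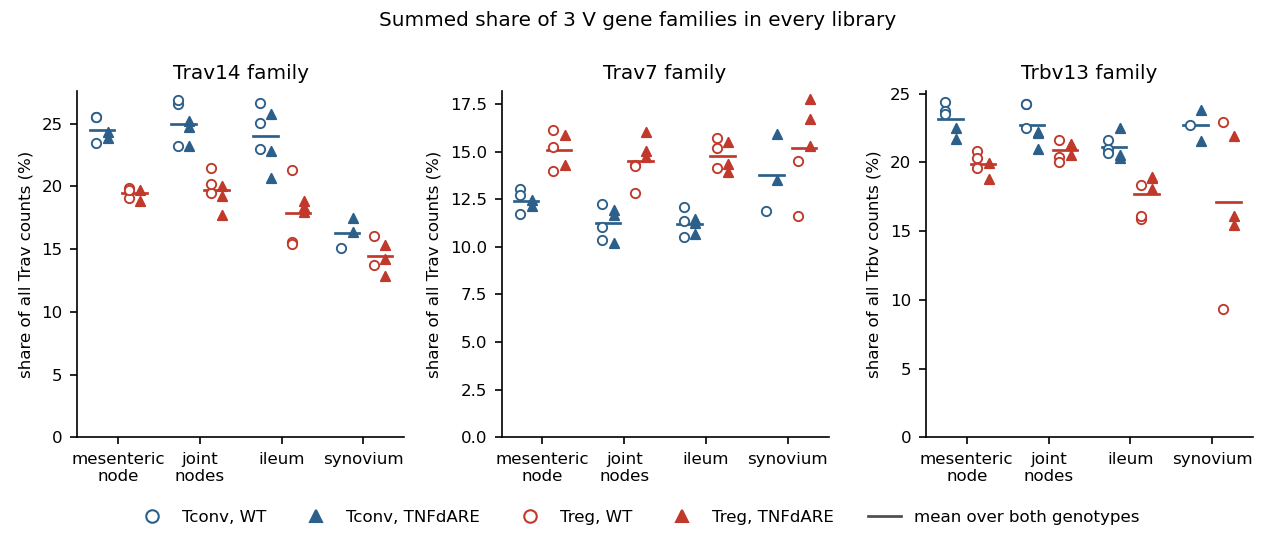
Summed share (percent of Trav or Trbv counts) of the Trav14, Trav7 and Trbv13 families in each library by site; colours, symbols and lines as in the plot of single beta genes. Trav14 is lower in Treg (17.7% to 21.5% against 23.2% to 26.9% in joint nodes) and Trav7 higher (12.8% to 16.1% against 10.2% to 12.2%). In CPM of the library the Trav7 medians are lower in Treg, with overlapping ranges in the mesenteric node and the ileum.

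Between sites, Trbv12-2 was higher in the ileum than in the mesenteric node in both cell types. In Tconv it held 5.73% to 8.92% in the ileum against 3.91% to 4.54%, without overlap (0.80 ± 0.0917, edgeR adjusted p = 1.336e-05). In Treg it held 7.63% to 10.5% against 6.18% to 6.44% (0.57 ± 0.112, edgeR adjusted p = 0.005013), though scaled per library the Treg value was -0.10. Trbv13-3 (-0.53 ± 0.0744, edgeR adjusted p = 7.688e-05) and Trbv1 (-0.43 ± 0.0722, edgeR adjusted p = 0.0002766) fell in ileal Tconv and held under every alternative fitted to them. Trav14-1 (-0.49) and Trav15-1-dv6-1 (-0.89) fell in ileal Tconv too. Trbv31 was higher there, 8.09% to 10.47% against 6.97% to 7.94% (0.20, edgeR adjusted p = 0.03351), held in 5 of 11 fits with 1 library left out (0.052 to 0.13 in the others) and was -0.10 scaled per library. Trav5-4 (0.34), Trav21-dv12 (0.49) and Trav4-4-dv10 (0.35) rose as shares and Trbv2 (-0.21) and Trbv16 (-0.24) fell. They held in 10, 8, 3, 10 and 7 of 11 fits with 1 library left out. Trav4-4-dv10 was also lost under the replicate block, Trbv16 with voom, and Trav5-4, Trav21-dv12 and Trav4-4-dv10 per library. Trbv24 was called in ileal Tconv (0.75, edgeR adjusted p = 0.01318; 0.07 without mesenteric TNFdARE Tconv B). The last calls in ileal Tconv were Trav6-5 (0.75) and Trav9d-1 (-0.71), which held in 2 and 4 of 11. Trbv24 rose in ileal Treg (1.44 ± 0.329, edgeR adjusted p = 0.0104), at 0.695% to 1.38% against 0.259% to 0.525%; it was not called scaled per library, with no filter, or without mesenteric TNFdARE Treg B (0.062) or C (0.085). In all, 14 of 91 V genes were called in Tconv (7 higher, 7 lower; 60.9% of all genes) and 2 of 89 in Treg (29.1% of all genes). Scaled per library the Tconv calls were 1 higher and 21 lower and the Treg calls 0 higher and 13 lower.

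Synovial Treg held more Trbv26 than joint node Treg. Its share was 9.39%, 9.81% and 7.30% in TNFdARE and 4.80% and 2.91% in WT synovial Treg, against 2.65% to 3.00% in joint node Treg. TNFdARE synovial Tconv were high too, at 6.77% and 4.78%, and the WT one was at 1.71%. Joint node Tconv held 2.62% to 2.98%, and the gene was not called in Tconv. The TNFdARE Treg libraries stood far above the nodes, while WT Treg B at 2.91% lay inside the node range (1.05 ± 0.226, edgeR adjusted p = 0.005698). The call held in all 11 fits with 1 library left out, and scaled per library the value was -0.14. Trbv31 fell in synovial Treg (-0.72 ± 0.213, edgeR adjusted p = 0.02383), holding in 5 of 11 such fits (0.052 to 0.067 in the others). In all 6 of 90 V genes were called (3 higher, 3 lower), against 37.6% of all genes. The count was 3 under the replicate block, 1 with voom and 29 without WT synovial Treg B, the Treg library with the lowest Foxp3. Scaled per library, 0 were higher and 17 lower. Trbv1 (0.41) and Trbv24 (1.62) rose and each held in 4 of 11 fits with 1 library left out. Both were lost under the replicate block, with voom and with no filter, and Trbv1 was -0.79 per library. Trav9n-1 and Trav3-4 were lower in synovial Treg, and both were at 0 in both WT libraries. Trav9n-1 held 0%, 0.111% and 0.0813% in TNFdARE synovial Treg against 0.0769% to 0.551% in joint nodes, and was not called without WT synovial Treg A (0.052). Trav3-4 held 0.392%, 0.0832% and 1.90% in TNFdARE against 0.298% to 0.799%, with a call in 2 of 11 fits.

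In synovial Tconv, Trbv31 was lower than in joint node Tconv in every library, 2.93%, 2.80% and 2.71% against 6.65% to 7.87% (-1.39 ± 0.0965, edgeR adjusted p = 8.984e-06). It stayed lower with TNFdARE libraries alone (-1.25). In all 17 of 92 were called (6 higher, 11 lower; 34.7% of all genes), and 5 with TNFdARE libraries alone. The TNFdARE fit leaves out the single WT synovial library, the one with Cd8a RNA, and the WT node libraries. In it 3 of the 17 calls held, 12 kept their direction without a call and 2 turned, Trbv12-1 from 0.75 to -0.22 and Trav6n-6 to 0.51. Trbv12-2 held 6.69% and 6.26% in TNFdARE and 8.45% in WT synovial Tconv against 3.96% to 5.10% in joint nodes (0.73, edgeR adjusted p = 0.0005589), with 0.42 in TNFdARE alone and -0.13 per library. Trbv2 (-0.64) fell and Trav12-2 (0.80) rose without overlap, with -0.25 and 0.54 and no call in TNFdARE alone. Trav21-dv12 was at 0.078% in that library and at 1.63% and 1.79% in the TNFdARE ones. Trav8-2 and Trav6n-6 were at 0 in it. Trav14-2 (-0.79), Trav14n-3 (-0.68), Trav14d-3-dv8 (-1.64), Trav17 (-1.29), Trav9-1 (-0.98) and Trbv20 (-0.53) fell and Trbv16 (0.34) rose. Of these Trav14-2, Trav14n-3 and Trav9-1 lost the call under the replicate block. Trbv16 was -0.50 per library and not called without joint node WT Tconv A (0.052), and Trav14-2 and Trav14n-3 held in 4 and 3 of 8 fits with 1 library left out. In TNFdARE libraries alone Trbv16 was called again at 0.65. Scaled per library, 0 were higher and 32 lower.

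Between the node sites 4 of 89 V genes were called in Treg (2 higher, 2 lower; 12.7% of all genes). Trbv3 was higher in mesenteric than in joint node Treg (0.38 ± 0.0606, edgeR adjusted p = 0.001004) in all 11 fits with 1 library left out. Trbv16 fell (-0.28, edgeR adjusted p = 0.01187; 0.063 without mesenteric TNFdARE Treg B), and Trbv12-1 (0.24) and Trbv13-3 (-0.20) held in 2 and 0 of 11. Scaled per library, 12 V genes were higher and 0 lower, and Trbv16 was not called. In Tconv 0 of 92 were called (3.74% of all genes); 1 had an unadjusted p below 0.05, and DESeq2 and voom called 0.

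Between genotypes, 4 of 88 V genes were called in joint node Treg (1 higher, 3 lower in TNFdARE), where 5.72% of all genes were called; scaled per library 1 was higher and 2 lower. Trbv2, the V segment named V beta 4, held 5.82%, 6.21% and 5.82% in TNFdARE Treg and 9.05%, 8.88% and 9.67% in WT Treg. All TNFdARE libraries lay well below all WT libraries (-0.63 ± 0.0782, edgeR adjusted p = 0.0002574), and the call held with each of the 6 libraries left out. In mesenteric Treg, Trbv2 had 5.89% and 5.87% in TNFdARE against 6.88%, 7.43% and 7.80% in WT (-0.33 ± 0.0926, edgeR adjusted p = 0.06432), which missed the threshold. In joint node Tconv it held 6.64%, 6.75% and 7.47% against 7.72%, 7.77% and 7.83% (-0.16, edgeR adjusted p = 0.4878). The genotype effect on Trbv2 in Treg against that in Tconv was -0.47 ± 0.110 and not called (edgeR adjusted p = 0.1058), so a difference between the cell types was not shown.

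Trbv12-1 rose in TNFdARE joint node Treg, from 4.48%, 4.41% and 5.07% in WT to 6.60%, 6.52% and 7.69% (0.58 ± 0.115, edgeR adjusted p = 0.00885). The groups did not overlap, but without WT Treg B (0.065) or TNFdARE Treg C (0.057) the call was lost. Trbv24 fell, from 0.708%, 0.776% and 0.472% to 0.289%, 0.253% and 0.299% (-1.22 ± 0.279, edgeR adjusted p = 0.01961), and was lost without TNFdARE Treg A (0.064), TNFdARE Treg B (0.067) or WT Treg B (0.093). Trbv31 fell, from 6.43%, 5.72% and 5.92% to 5.12%, 4.64% and 4.56% (-0.34 ± 0.0814, edgeR adjusted p = 0.0273), and held in 1 of 6 such fits (0.062 to 0.12 in the others). It was also lost scaled per library and with the sample-sheet term. With no filter on low genes 2 V genes were called, and 0 in the fit of all 42 libraries.

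**Figure D5:**
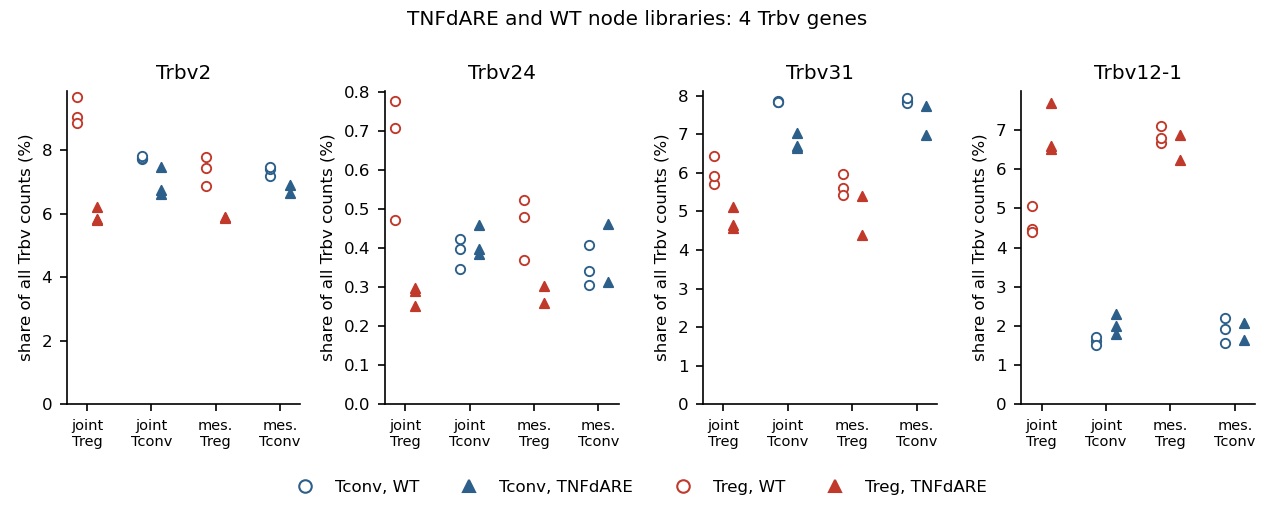
Share of Trbv counts (percent) held by Trbv2, Trbv24, Trbv31 and Trbv12-1 in the node libraries by genotype and cell type. In joint node Treg the TNFdARE libraries of Trbv2 (5.82% to 6.21%) lie below WT (8.88% to 9.67%), and Trbv12-1 lies above; the Tconv libraries lie closer together.

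The other 7 genotype comparisons called 0 V genes. Genes at an unadjusted p below 0.05, DESeq2 calls and voom calls were 5, 1 and 0 in ileal Treg (0.729% of all genes called by edgeR), 3, 0 and 2 in ileal Tconv (1.31%), 4, 3 and 0 in mesenteric Treg (5.68%) and 4, 0 and 0 in mesenteric Tconv (2.35%). They were 6, 1 and 0 in joint node Tconv (2.8%), 3, 0 and 0 in synovial Treg (0.111%) and 1, 0 and 0 in synovial Tconv (0.512%). The synovial Tconv comparison has 1 WT library, the one with Cd8a RNA, which is assumed to vary like the other groups, so its count of 0 says little. The replicate block called 1 gene in joint node Tconv. The genotype effects of Treg and Tconv differed for 0 V genes in the joint nodes (0.449% of all genes; 5 at an unadjusted p below 0.05, 1 by DESeq2, 0 by voom), the ileum (0.0188%; 1, 0 and 0) and the mesenteric node (0.209%; 0, 0 and 0). Trbv16, chosen after its values were seen, had a positive log2 fold change in all 8 genotype comparisons, from 0.15 to 0.87, and none was called. The 8 comparisons share their experiments and are not independent, so the common sign is a description only. In joint node Treg Trbv16 held 9.04%, 8.45% and 8.59% in TNFdARE against 6.94%, 7.06% and 7.92% in WT (0.25, edgeR adjusted p = 0.07372).

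Segments known from innate-like T cells were looked at by name. Trav11, used by invariant NKT cells, had 7 counts over all libraries and its copy Trav11d 5, so neither was kept. Their copy Trav11n, annotated as a pseudogene, held at most 0.434%, in WT ileal Treg C, and was at 0 in all 5 synovial Treg libraries. Trav1, used by MAIT cells, rose in synovial Tconv against joint node Tconv (1.56 ± 0.347, edgeR adjusted p = 0.007373), with 1.61% and 2.23% in TNFdARE and 3.69% in WT against 0.577% to 1.11%. All synovial libraries were higher than all node libraries, and with TNFdARE libraries alone the value was 1.28 and not called. Trbv29, frequent in NKT cells, was 2.40%, 1.69% and 3.79% there against 0.983% to 1.28% (1.25 ± 0.207, edgeR adjusted p = 0.001518), and 0.72 and not called with TNFdARE libraries alone. Trbv13-2, also found in NKT cells, and Trbv19, found in MAIT cells, did not rise in synovial Tconv against joint node Tconv. Trbv13-2 held 9.25% to 11.58% against 10.14% to 11.73%, and Trbv19 6.21% to 9.92% against 8.02% to 9.45%, with no call. Both were also not called between Treg and Tconv at any of the 4 sites (-0.24 to -0.12 and -0.10 to -0.04). Trbv5 held 0.142% on average, in a region shared with another annotated gene. The summed NKT markers Zbtb16 and Klrb1c were at 10.81, 14.58 and 169.4 CPM in the 3 synovial Tconv libraries, high in 1 of them. Zbtb16 alone was at 55.33 and 39.63 CPM in WT synovial Treg A and B, against 0.9723 to 3.001 CPM in TNFdARE synovial Treg. The part of these markers in the shares was not tested.

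Distances between libraries show how far the Trbv pattern as a whole differed. The Bray-Curtis distance, the percent of shares that would have to move to make a pair of libraries alike, had a median of 3.774% between joint node Treg libraries and 2.753% between Tconv libraries of the same genotype. From Treg to Tconv of the same experiment it was 8.622%. In the mesenteric node these medians were 3.157%, 3.531% and 11.45%, and in the ileum 8.443%, 6.169% and 12.75%. In the synovium the distances within Treg had a median of 13.98% and reached 33.63%, against a median of 16.8% and a highest value of 27.64% from Treg to Tconv. For Trav the joint node medians were 11.31% and 9.006% within and 12.51% between, so the distance between cell types was closer to that within them. Pairs within a cell type all come from different experiments. From Treg to Tconv of different experiments, the joint node median was 13.42% for Trav and 8.747% for Trbv. Joint node libraries held 3630 to 8447 Trav counts over more genes, against 10378 to 17982 Trbv counts. The part of counting error in the Trav distances was not tested. Over the 42 libraries, the share of Trbv31 was most like that of Trav14-2 (Pearson's r = 0.80, Spearman's rho = 0.80), and that of Trbv12-1 most like Trav16n (0.63 and 0.55). These correlations are a description over libraries that share sites, sorts and experiments.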

How the data were processed

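The deposited counts are raw reads per Ensembl gene in 42 libraries. The authors' extract protocol names SMART-Seq v4 full-length cDNA and single reads of 100 bases; cutadapt 1.15, Bowtie2 2.3.3.1 and GRCm38 stand in the submitters' processing notes. The counting program and annotation release are not given in the sources used here. Symbols and transcript sequences came from GENCODE M21, which named 46005 genes and left 598 unnamed. The members and lists were chosen with earlier results of these data known.

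The test was the quasi-likelihood F test of edgeR 4.0.16 under R 4.3.3 after filterByExpr, fitted per site to the groups of cell type and genotype. The offset of a Trav or Trbv gene was its library's total Trav or Trbv count, and of other genes the TMM library size. Benjamini-Hochberg adjustment ran over all genes tested, and a gene was called at an adjusted p below 0.05. Treg against Tconv averaged both genotypes, and site contrasts used 2 sites of 1 cell type. The main test had no term for the experiment, so libraries of the same experiment entered it unpaired. There were 18 comparisons and 4 interactions. Alternatives were TMM scaling, DESeq2 1.42.0, voom of limma 3.58.1, no filter, summed families, 1 fit of all 42 libraries, the sample-sheet number (1 to 32 against 33 to 44) as a term, the experiment letter as a replicate block, and leaving out each library. The sample-sheet term was fitted only within the ileum, the synovium and the joint nodes, since all mesenteric libraries are numbered 32 or lower. Most synovial libraries are numbered 33 or higher and nearly all joint node libraries 32 or lower. Sheet number and site are thus largely confounded in that contrast, to which no such term was fitted. Fits of TNFdARE libraries alone were added after seeing the data. The fits were tested on simulated data. Genes named are the 12 Trav and 12 Trbv genes of largest mean share; in each comparison up to 6 called genes each way with a share of 1% or more and up to 4 smaller ones; segments known from innate-like T cells, Trbv5, Trbv13 genes and the Trav14 family; each library's leading gene; the constant and receptor genes; and those at the count minimum. Other names, the Trav7 family, Trbv26 and Trbv16 among them, were chosen after their values were seen.

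The design text states 3 independent experiments, so libraries of 1 letter can be paired. Deviations of Treg and Tconv of the same experiment correlated above 0.1 in 17 of 19 pairs (median 0.27) and in 2 of 36 pairs of other experiments. Between genotypes the figures were weaker, 11 of 18 (median 0.13, lowest -0.32) against 11 of 36. Deviations cancel out within a small group, so the figures for other experiments are tied to those of the same experiment. They are no separate check. With PCR reads and no molecular identifiers, precision covers counting error only.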

Additional observations from a re-analysis of the deposited data

Results flagged for a closer look

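The difference between Treg and Tconv in Trbv31 was itself different between the ileum and the mesenteric node, by an interaction of -0.58 ± 0.137 on the log2 scale (edgeR quasi-likelihood test, adjusted p = 0.01324 over all genes tested). Trbv31 was lower in Treg in all ileal libraries (3.29% to 4.92% against 8.09% to 10.47% of Trbv counts, n = 6 each) and in all mesenteric libraries (n = 5 each). The fit was adjusted over 17613 genes, and the call held in 20 of 22 fits with 1 library left out. It was lost with no filter. The causes of the difference were not tested.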

How the results depend on the processing

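Of 82 calls of V genes (41 genes), 12 held under every alternative fitted to them and every left-out library. Between Treg and Tconv these were Trbv12-1 and Trbv31 at 3 sites and Trbv12-2 at both node sites. Between ileal and mesenteric Tconv they were Trbv12-2, Trbv1 and Trbv13-3, and between synovial and joint node Tconv Trbv31. The sample-sheet term was not fitted to the mesenteric node or to contrasts of sites. DESeq2 kept 81, the replicate block 75, voom 66, TMM scaling per library 54, no filter 49 and the fit of all 42 libraries 34 of 82; TNFdARE libraries alone kept 3 of 17 and the sample-sheet term 22 of 26. The causes of these changes were not tested. The low Trbv counts of most synovial libraries limit what can be seen there.

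Counts of called V genes changed as follows. For Treg against Tconv, the ileum (3 called) had 11 scaled by TMM, 10 with DESeq2, 6 with the replicate block, 5 with voom, 5 with summed families and 6 with all 42 libraries. The mesenteric node (12) had 31 by TMM and 3 with all 42 libraries, joint nodes (19) had 59, 10 with no filter and 3 with all 42, and the synovium (0) had 1 with DESeq2 and 12 with all 42. Between genotypes, Treg of the ileum (0) had 1 with DESeq2, ileal Tconv (0) 2 with voom and 1 with all 42, mesenteric Treg (0) 1 by TMM and 3 with DESeq2, synovial Treg (0) 12 and synovial Tconv (0) 10 with all 42. Joint node Treg (4) had 2 with no filter and 0 with all 42, joint node Tconv (0) 1 with DESeq2 and 1 with the replicate block, and the joint node interaction of genotype and cell type (0) 1 with DESeq2.

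Between the ileum and the mesenteric node, Treg (2) had 13 by TMM, 7 with DESeq2, 1 with no filter, 4 with voom and 5 with all 42, and Tconv (14) had 22, 7 with no filter and 3 with all 42. Between synovium and joint nodes, Treg (6) had 17 by TMM, 10 with DESeq2, 3 with no filter, 3 with the replicate block, 1 with voom and 24 with all 42, and Tconv (17) had 32, 11 with summed families and 5 with TNFdARE libraries alone. Between nodes, Treg (4) had 12 by TMM, 2 with no filter, 2 with summed families and 0 with all 42. The interaction of cell type and site (1) had 2 by TMM, 2 with DESeq2, 0 with no filter and 2 with the replicate block.

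With 1 library left out, the counts for Treg against Tconv were 3 to 8 in the ileum (8 without WT Treg C), 9 to 14 in the mesenteric node and 13 to 18 in joint nodes. Between genotypes they were 2 to 3 in joint node Treg, 0 to 1 in mesenteric Treg and 0 to 1 in synovial Treg (1 without WT Treg B). Between sites they were 1 to 4 and 7 to 14 for ileal against mesenteric Treg and Tconv, 2 to 29 (29 without WT synovial Treg B) and 14 to 28 (28 without TNFdARE synovial Tconv B) for synovium against joint nodes, and 1 to 4 for mesenteric against joint node Treg. The interaction of cell type and site had 0 to 2.

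Directions that turned under TMM scaling were Trav7d-4 (-0.26), Trav7-4 (-0.39), Trav4-4-dv10 (-0.50) and Trav7-1 (-0.28) in Treg against Tconv of joint nodes, Trbv12-2 (-0.10) in ileal against mesenteric Treg and Trbv31 (-0.10) in Tconv. Trbv1 (-0.79) and Trbv26 (-0.14) turned in synovial against joint node Treg, Trbv16 (-0.50), Trbv12-2 (-0.13) and Trbv12-1 (-0.10) in Tconv, and Trbv13-3 (0.01) in mesenteric against joint node Treg. With TNFdARE libraries alone, Trav6n-6 (0.51) and Trbv12-1 (-0.22) turned in synovial against joint node Tconv.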

Other observations

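Libraries of the same experiment shared some Trav shares. Over the 22 node libraries, 3 of 94 kept genes had shares that did not overlap between experiments B and C, chosen after their values were seen. Trav14d-3-dv8 held 1.76% to 2.86% of Trav counts in experiment B, 3.16% to 6.60% in C and 2.85% to 4.89% in A. Trav8d-2 held 0.179% to 0.737% in B and 0.870% to 1.27% in C. Trav6n-6 held 0.243% to 0.486% in B and 0.543% to 1.05% in C.

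The share of Trbc1 in the 2 beta constant genes, as a description, was 36.85% to 39.75% in the nodes. In Treg the tissue libraries lay above that range, at 41.43% to 44.60% in the ileum and 40.43% to 51.94% in the synovium. In Tconv they overlapped it, at 37.84% to 42.83% in the ileum and 39.34% to 46.23% in the synovium. The pseudogene Trbv22 reached 0.695% of Trbv counts in WT synovial Treg A and 0.364% in WT synovial Treg B.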
